A study of Rattus norvegicus with 34 samples.

Results

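Expression in untreated rat kidney was set against expression in untreated rat liver, with 4 control kidney arrays and 4 control liver arrays, which are 8 of the 34 arrays in the series. The 8 arrays were chosen by their labels alone, as the kidneys and the livers of rats given vehicle. The animals were males of the Wistar-derived-Liverpool John Moores University stock, of 7 to 9 weeks and 190 to 240 g. The controls had received corn oil at 5 ml/kg and were killed 72 h after the last dose. Another 4 kidney and 4 liver arrays came from rats of the same kind that received the herbicide monuron in corn oil (40 mg/kg on the first day and 400 mg/kg on the later days), and they serve here as a second set of kidneys and livers. The remaining arrays, of a cultured rat kidney epithelial line, were not used. Each array was hybridised with whole-organ RNA, so fewer cells of a type and less RNA per cell cannot be told apart. The labels call the arrays biological replicates and do not say whether a kidney and a liver of the same number came from 1 rat.

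Liver and kidney both rest on a polarised epithelium, and they share the making of glucose and the clearance of drugs and waste. Hepatocytes, which form most of the liver, secrete the plasma proteins, make bile acids from cholesterol and turn ammonia into urea. The kidney is built from nephrons, in which podocytes filter blood, the proximal tubule takes back most solutes, the loop of Henle builds the salt gradient of the medulla, and the distal tubule and collecting duct set the final urine under hormonal control. The organs arise from different germ layers, the liver from endoderm and the kidney from intermediate mesoderm.

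The unit throughout is a log2 signal per probe set, brought to a common distribution over the 8 control arrays, on which the median of every array was 3.80. A difference is the kidney mean minus the liver mean on this log2 scale, so a positive value is higher in kidney. Arrays of 1 organ correlated at 0.993 to 0.996 in kidney and 0.992 to 0.996 in liver over all probe sets, and arrays of different organs at 0.850 to 0.856. The 3-prime excess over the 5-prime end (log2), a measure of RNA integrity, was 3.05 to 3.60 in kidney and 3.40 to 4.77 in liver for beta-actin. Only liver array 3 (3.40) lay within the kidney range, and liver arrays 1, 2 and 4 (4.24, 3.80 and 4.77) lay above it. For GAPDH it was 0.01 to 0.31 in kidney and 0.12 to 0.58 in liver, so these ranges overlapped. The part of RNA integrity in the differences below was not tested. In the values as deposited the kidney arrays had medians of 3.91 to 3.93 and the liver arrays of 3.67 to 3.70. The median difference of all genes tested was 0.03 after quantile normalisation, 0.17 in the values as deposited and -0.06 with each array centred on its median, and this shift matters for gene groups whose differences are small.

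Of 9909 genes tested, 7806 (78.8%) differed between the organs at an adjusted p below 0.05 (limma, Benjamini-Hochberg), 4011 of them higher in kidney (40.5% of genes tested) and 3795 higher in liver (38.3%). Which organ held more of these calls depended on the scaling: the kidney share was 51.4% here, 58.3% in the values as deposited, 47.3% with array medians centred and 46.9% without the filter on dim genes. At least 2-fold differences were called for 2246 genes in favour of kidney (22.7% of genes tested) and 1861 in favour of liver (18.8%). The arrays of the organs did not overlap at all for 7339 genes (74.1%). The largest differences lay more often on the liver side. A difference of at least 8 was called for 94 genes higher in kidney and 158 higher in liver, and one of at least 10 for 33 and 97. Because dim values are bounds, the counts were repeated with every value below the array median set to that median, which gave 64 and 128 genes for 8 and 12 and 65 for 10. A stricter view counted genes above the array median on all 4 arrays of 1 organ and on no array of the other: 539 genes were on in kidney only (5.44%) and 376 in liver only (3.79%). Most genes were shared. 8454 genes lay above the median on all 8 arrays, and for 4405 of these (52.1%) the 95% confidence interval of the difference stayed within 2-fold in either direction. GCRMA leaves a dim probe set at a value near 2, which is a bound and not a measured absence.

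**Figure D1:**
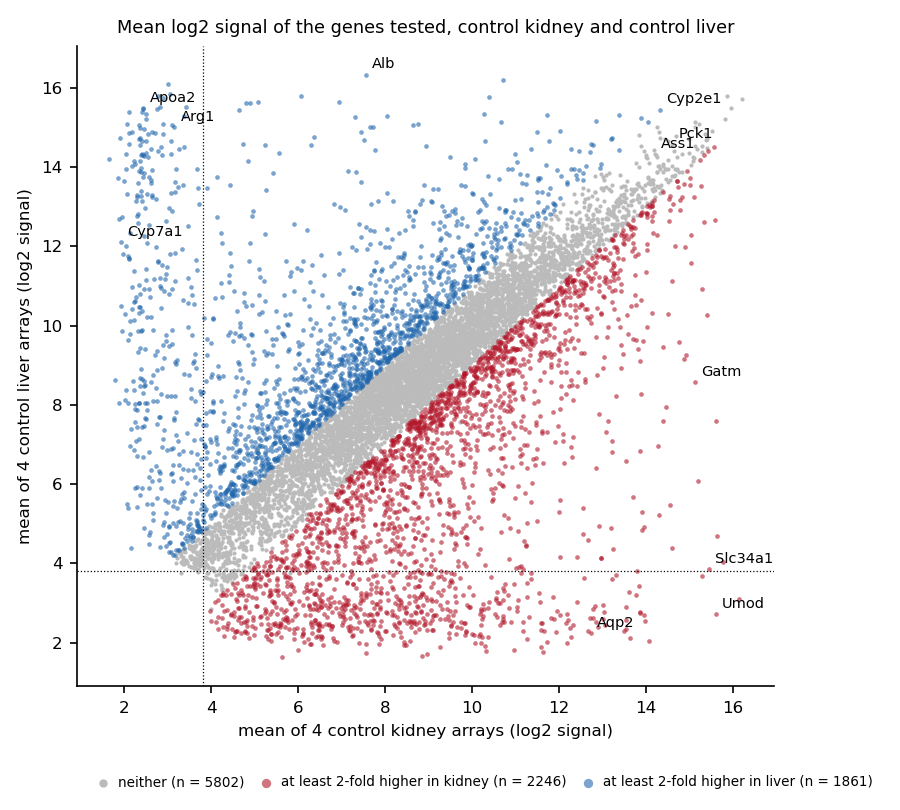
Mean log2 signal of each of 9909 genes on the 4 control kidney arrays (x axis) and the 4 control liver arrays (y axis), with genes at least 2-fold higher in kidney in red and in liver in blue, and dotted lines at the array median of 3.80. The blue genes along the left edge and the red genes along the lower edge lie below the median in the other organ, and the grey diagonal holds the 5802 genes that were not called at 2-fold.

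On the kidney side the largest difference was that of Kap, the androgen-regulated protein of the proximal tubule. Its signal was 16.17, 16.17, 16.09 and 16.17 on the kidney arrays and 5.02, 2.53, 2.40 and 2.41 on the liver arrays, a difference of 13.06 (SE 0.51, adjusted p = 4.25e-09). The kidney values sat at the top of the scale, and liver array 1 stood apart from the other liver arrays. Umod, the glycoprotein of the thick ascending limb, was at 15.65, 15.68, 15.53 and 15.60 in kidney and 3.02, 2.85, 2.55 and 2.46 in liver (difference 12.89, or 11.81 with values below the median raised to it). The next genes were Defb1, an epithelial defensin (12.03), Cltrn (collectrin), a partner of amino acid transporters in the proximal brush border (11.74), Slc3a1, a subunit of the cystine transporter (11.63), and Slc34a1, the sodium-phosphate cotransporter (11.60). The order of these rests on liver values below the array median, which are bounds: with those raised to the median, Cltrn (11.68), Slc34a1 (11.37) and Slc3a1 (11.34) lay above Defb1 (10.27). Kcnj16, Mep1a, Slc12a1, Cldn10, Slc22a6 and Calb1 followed, with differences of 11.52 down to 11.11. These leading genes come from several parts of the nephron: the proximal tubule (Slc34a1, Slc22a6, Mep1a), the loop of Henle (Umod, Slc12a1, Cldn10) and the distal tubule (Calb1).

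On the liver side the leading genes were secreted proteins, lipid carriers and cytochromes P450. Serpina3l, a serine protease inhibitor of plasma, differed by -13.28 (adjusted p = 2.35e-14), followed by Ahsg (fetuin-A, -13.11), Apoa2 (-13.06), Serpina3c (-13.04), Apoc1 (-13.04) and Itih3 (-13.02). Cyp2c6v1 (-13.00), Fabp1, the liver fatty acid binding protein (-12.85), Serpina1 (-12.84), Cyp2c13 (-12.83), Hp (-12.79) and Itih4 (-12.76) completed the first 12. Their kidney values are bounds and their order is not settled: with values below the median raised to it, Ahsg (-12.31), Hp (-12.05) and Apoc1 (-12.00) lay ahead of Serpina3l (-11.59). Apoa2 is an example, with 15.58, 15.44, 15.38 and 15.60 on the liver arrays and 2.39, 2.51, 2.48 and 2.38 on the kidney arrays. Serpina3, Cyp2c and Ugt2b genes belong to families of near-identical copies, so the signal of a single member may hold that of its relatives.

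**Figure D2:**
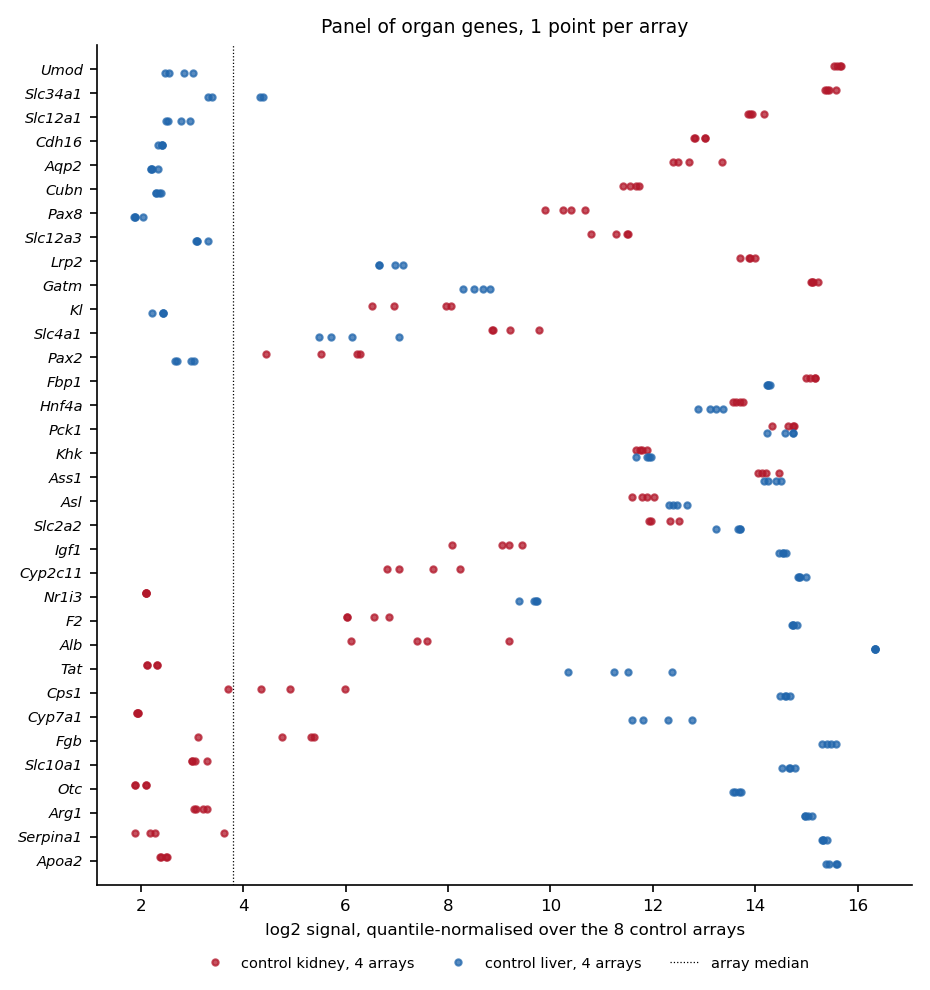
Log2 signal of a panel of 34 organ genes on each control array (red, 4 kidney arrays; blue, 4 liver arrays), ordered by the difference between the organ means, with a dotted line at the array median of 3.80. Umod, Slc34a1 and Slc12a1 at the top and Apoa2, Serpina1 and Arg1 at the bottom separate the organs fully, while the points of Pck1, Ass1 and Khk overlap.

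Transport and binding proteins of plasma had the lowest median among the lists with at least 8 tested members. List counts here and below are over tested members, which lay above the array median on at least 4 of the 8 arrays. A member bright in a single organ could pass through that organ alone. The background for every list is the share over all genes tested, at 2-fold 22.7% in kidney and 18.8% in liver. All 24 transport and binding proteins tested were at least 2-fold higher in liver (background 18.8%), with a median difference of -10.79 against 0.03 over all genes tested. Alb (albumin) reached 16.34 on all 4 liver arrays, the top of the scale, and 7.58, 7.40, 9.19 and 6.11 on the kidney arrays. Quantile normalisation gives the same value to the same rank on every array. The lack of spread of Alb among the liver arrays was therefore fixed by the method and cannot be set against the kidney spread. Rbp4, the carrier of retinol, and Gc, the carrier of vitamin D, had some of the smallest differences of the list (-5.07 and -5.47), with kidney means of 10.28 ± 0.33 and 10.73 ± 0.44 (SD, n = 4). For Gc this held for its brighter probe set, and the other had a kidney mean of 2.92 and differed by -9.45. Among apolipoproteins and genes of lipoprotein assembly, 16 of 17 were higher in liver at 2-fold (median -10.74). Apob, the core protein of the lipoproteins that liver secretes, differed by -11.96, and Mttp, which loads it with lipid, by -9.69. Apoe, made in many cell types, differed by only -1.92. Apom was the exception: its means were 13.56 ± 0.06 in kidney and 13.65 ± 0.11 in liver, and the interval of the difference ran from -0.24 to 0.06.

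Coagulation followed the same course, with 16 of 16 genes higher in liver and a median of -10.62. The fibrinogen chains Fgg, Fgb and Fga differed by -12.72, -10.79 and -7.25, and Plg (plasminogen) by -12.70. Fga had a kidney signal of 8.72, 7.85, 7.94 and 7.71, above the array median, but its second probe set had a kidney mean of 3.28, below that median, and differed by -9.70. F5 (-2.79), Serpinf2 (-2.91) and Serpinc1 (antithrombin, -3.40) had the smallest differences. In the complement list 21 of 22 genes were higher in liver (median -6.71). The terminal component C9 (-12.20) and Crp, the acute-phase protein (-11.84), led, whereas the C1q chains C1qa, C1qb and C1qc, products of macrophages, differed by -3.61, -4.08 and -3.40. Masp2 was the member not called (-0.12), but it depended on the probe set: the other probe sets gave -8.88 and -10.17, and leaving out any 1 kidney array put one of these first, with -10.17 to -10.16.

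Genes of bile acid synthesis were mostly higher in liver, with 11 of 13 genes at least 2-fold higher in liver and none in kidney (median -7.07). Cyp7a1, the rate-limiting enzyme of the classical pathway, was at 12.77, 11.81, 11.59 and 12.30 in liver and 1.94, 1.94, 1.93 and 1.93 in kidney, so the liver arrays spread by more than 1 log2 unit and the kidney arrays did not. Cyp8b1, which sets the ratio of cholic acid, differed by -10.73, and Cyp27a1, the mitochondrial enzyme of the alternative pathway, by -6.03, with a kidney mean of 6.98 ± 0.44. The smallest differences were those of peroxisomal steps: Scp2 (-1.52) and Amacr (-1.10, not called when tested against 2-fold itself) just passed 2-fold, and Hsd17b4 (-0.40) and Slc27a2 (-0.31) did not. Among carriers of bile acids and bile lipids, 9 of 11 were higher in liver. These were led by the basolateral uptake carriers Slc10a1 (-11.57) and Slco1b2 (-11.13) and the canalicular export pump Abcb11 (-10.27). Slc51a, a subunit of the basolateral bile acid exporter, went the other way, at 9.03, 8.87, 8.56 and 8.27 in kidney and 2.53, 2.53, 2.53 and 2.55 in liver (6.15, adjusted p = 2.65e-10). The arrays of the organs were far apart for it.

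The urea cycle was split between the organs. Arg1, the last enzyme of the cycle, had 14.98, 15.03, 14.96 and 15.10 in liver and 3.29, 3.08, 3.20 and 3.04 in kidney, and Otc and Cps1, the mitochondrial steps, differed by -11.66 and -9.86. Nags, which makes the activator of Cps1, differed by -8.47. The cytosolic middle of the cycle was present in both organs: Ass1 was at 14.13, 14.05, 14.22 and 14.47 in kidney and 14.25, 14.17, 14.40 and 14.50 in liver, and the interval of its difference was -0.34 to 0.12. These values overlap, and Asl, the next enzyme, differed by only -0.64 (-1.08 from its other probe set) (adjusted p = 2.69e-04). In the kidney these 2 enzymes make arginine from citrulline. Creatine synthesis was shared out as well. Gatm, which makes guanidinoacetate, was higher in kidney at 15.23, 15.14, 15.10 and 15.09 against 8.83, 8.52, 8.30 and 8.68, a difference of 6.56. Gamt, which methylates that product to creatine, was higher in liver (-2.54). The creatine transporter Slc6a8 (7.15) and the mitochondrial arginase Arg2 (6.41) were higher in kidney. Over the list of 12 genes, 7 were called higher in liver (background 18.8%) and 3 in kidney, a share near the background of 22.7%.

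Amino acid breakdown leaned to liver, with 19 of 35 genes called there (background 18.8%, median -1.50). In kidney 5 were called, a share below the background of 22.7%. Tdo2 (-12.36), which opens the tryptophan ring, Mat1a (-11.79), the hepatic S-adenosylmethionine synthase, Uroc1 (-10.95) and Hal (-8.84) of histidine breakdown, and Tat (-9.15), the tyrosine aminotransferase, were the strongest. Later steps of tyrosine breakdown did not pass 2-fold, with -0.58 for Hpd, -0.39 for Hgd and -0.84 for Fah (-1.20 with array medians centred, past 2-fold). On the kidney side were Acmsd of the tryptophan pathway (6.54), Dao, the D-amino acid oxidase (3.47), Hao2 (2.92), Agxt2 (2.11) and Glul, glutamine synthetase (1.30, or 0.94 with array medians centred).

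Cytochromes P450 of families 1 to 4, the oxidases of drugs, steroids and fatty acids, were higher in liver for 27 of 34 genes (median -7.33). Cyp1a2 (-12.49), Cyp3a2 (-12.10) and Cyp2c11, the male-specific form (-7.44), were among them. Cyp2c11 still had 7.05, 8.24, 7.71 and 6.81 on the kidney arrays. Cyp2e1 differed by only -1.13, with kidney means of 14.32 ± 0.09 and liver means of 15.46 ± 0.09. The 4A family of fatty acid hydroxylases did not follow the liver. Cyp4a8 was higher in kidney by 7.30 and Cyp4a3 by 1.26 (0.94 with array medians centred, under 2-fold), while Cyp4a1 (0.05, interval -0.24 to 0.34) and Cyp2c23, the arachidonate epoxygenase (0.31), did not pass 2-fold. Of 33 conjugating enzymes, 18 were higher in liver (background 18.8%) and 7 in kidney, a share near the background of 22.7%. Sult1e1 (-11.91), Ugt2b1 (-11.84) and Gstm1 (-6.44) stood on the liver side and Ugt2b7 (7.81), Gstp1 (5.17) and Sult1c2 (4.20) on the kidney side, so sulfotransferases, glucuronosyltransferases and glutathione transferases each had members on both sides. Gsta1 had means of 15.15 ± 0.04 and 15.03 ± 0.05. Among 11 enzymes of vitamins A and D and of steroids, 7 were higher in liver, led by Rdh7 (-11.64) and Hsd17b6 (-11.59). Hsd11b2, which protects the mineralocorticoid receptor from glucocorticoids, was higher in kidney (5.63), and Hsd11b1, which runs the opposite reaction, was at 14.27 ± 0.07 and 14.27 ± 0.11.

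Enzymes of glucose production were present in both organs. Pck1, the committing enzyme of gluconeogenesis, was at 14.75, 14.32, 14.64 and 14.74 in kidney and 14.74, 14.58, 14.23 and 14.73 in liver, with a difference of 0.04 and an interval of -0.25 to 0.33. Fbp1 was 1.79-fold higher in kidney (0.84, adjusted p = 1.51e-07), and Khk, the first enzyme of fructose use, differed by -0.09 (-0.27 to 0.09). Slc37a4, the glucose-6-phosphate carrier, and Pc (pyruvate carboxylase) differed by 0.15 and -0.17. Glucose storage and use did separate them. Gckr (-8.65), Gys2 (-8.11) and Ppp1r3b (-7.78), which regulate glucokinase and glycogen synthesis, were higher in liver. Hk1 (4.85), Pfkm (5.12, though -0.24 from a dimmer probe set), Ldhb (9.09) and Slc5a2, the glucose reabsorption carrier (8.25), were higher in kidney. Over the 26 genes of glucose handling, 10 were called in kidney and 8 in liver. Of 33 genes of fatty acid and ketone body metabolism, 17 were higher in liver, among them Scd (-6.52), Fads2 (-4.58) and Fasn (-1.74) of fatty acid synthesis. Core enzymes of beta-oxidation were not called at 2-fold (Acadm -0.18, Hadha -0.38, Cpt1a -0.11). Oxct1, the enzyme that lets a tissue burn ketone bodies and that liver lacks, was at 13.75, 13.84, 13.74 and 13.75 in kidney and 3.25, 2.68, 3.54 and 3.29 in liver, all of the latter below the array median.

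The proximal tubule list was the longest of the nephron lists and had the highest median (7.66). At least 2-fold higher in kidney were 38 of its 41 tested markers (background 22.7%), and none were in liver. The uptake receptors Lrp2 (megalin) and Cubn differed by 7.02 and 9.27. Cubn was at 11.55, 11.68, 11.41 and 11.73 in kidney and 2.29, 2.29, 2.38 and 2.35 in liver. Carriers of phosphate (Slc34a1, Slc34a3), glucose (Slc5a2), dibasic amino acids (Slc7a9, 10.38) and organic anions (Slc22a6) separated the organs, while the organic anion carriers Slc17a1 and Slc17a3 and the sulfate carrier Slc26a1 did not (0.58, 0.43 and -0.64). Lrp2 had a liver mean of 6.85 ± 0.24, above the array median, unlike Cubn at 2.33 ± 0.05. In the podocyte list 8 of 11 genes were higher in kidney, with Podxl (5.76), Ptpro (5.72) and Nphs1 (5.35), a protein of the slit diaphragm, in front, and Plce1 was higher in liver (-1.21, or -0.78 in the values as deposited, which is under 2-fold).

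In the loop of Henle list 14 of 16 genes were higher in kidney (median 7.37). Slc12a1, the furosemide-sensitive salt carrier, was at 13.89, 13.86, 14.17 and 13.94 and 2.53, 2.95, 2.78 and 2.49. Its companions Kcnj1 (7.63), Bsnd (7.12), Casr (7.75) and Cldn16 (7.80) were all below the median in liver. Cldn14, a tight junction gene of the same segment, ran the other way, at 2.53, 2.52, 2.52 and 2.45 in kidney and 8.05, 7.69, 7.21 and 7.63 in liver. Of the distal convoluted and connecting tubule, 8 of 9 tested genes were called, with Calb1 (11.11), Klk1 (10.97), Slc12a3, the thiazide-sensitive carrier (8.13), and Kl (klotho, 4.99). Another 4 genes of that list, Pvalb, Trpv5, Kcnj10 and Slc41a3, were too dim to test. Principal cells of the collecting duct gave 14 of 17, led by the water channels Aqp2 (10.50) and Aqp3 (8.65). All 3 subunits of the sodium channel, Scnn1a, Scnn1b and Scnn1g, were among them (4.86, 4.58 and 5.81). Krt18 and St6gal1, which hepatocytes also make, were higher in liver (-4.34 and -1.25). Intercalated cells, which secrete acid or base, gave 9 of 10, among them Atp6v1g3 (10.34), Slc26a4 (pendrin, 7.57), Rhcg (7.60) and Foxi1 (5.65). Slc4a1, shared with red blood cells, had a liver mean of 6.09 ± 0.68 and differed by 3.09.

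Carriers of organic ions and drugs were divided by organ: 12 of 18 were higher in kidney and 5 in liver. Slc22a6 (11.19), Slc47a1 (10.08), Slc22a12, the urate carrier (9.62), and Slc22a2 (9.34) stood on the kidney side and Slco2b1 (-6.46), Abcc6 (-6.06) and Slc22a7 (-6.10) on the liver side. Of the 24 subunits of the sodium pump and the vacuolar proton pump, 18 were higher in kidney and 2 in liver (median 1.64). Within the proton pump the differences varied by subunit. The broadly expressed subunits Atp6v0c, Atp6v1d, Atp6v1a and Atp6v1b2 differed by 1.40, 1.91, 2.66 and 3.28, and Atp6v0a4 and Atp6v1b1, the forms of intercalated cells, by 9.88 and 6.67. Atp6v0a1, the alternative to Atp6v0a4, was higher in liver (-1.44). The sodium pump regulators Fxyd2 (9.11) and Fxyd1 (-6.69) pointed in opposite directions. Among genes of the medulla and its osmolytes 8 of 10 were higher in kidney. They included Slc5a3, the inositol carrier (5.70), and Nfat5, the osmotic stress factor (1.62).

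Transcription factors divided in the same way as the genes above. Of 20 hepatic factors and nuclear receptors, 16 were higher in liver and none in kidney (median -4.72). Creb3l3 (-9.96), Onecut1 (-8.36), Nr5a2 (-8.28), Foxa2 (-8.24) and Nr1i3, the drug-sensing receptor CAR (-7.54), led, and Cebpa, present in both organs, differed by -4.18. Hnf4a, a master regulator of hepatocytes that the proximal tubule also uses, was at 13.63, 13.70, 13.76 and 13.56 in kidney and 13.12, 13.37, 13.24 and 12.88 in liver. The kidney values were the higher ones without overlap, by 0.51 (adjusted p = 8.55e-04), under 2-fold, while its dimmer probe sets gave -0.52 and -0.37. Nr1h4, the bile acid receptor, differed by 0.21 (-0.06 to 0.49). Of 32 renal factors on the array 24 were tested, and 21 of these were higher in kidney (median 4.03). The other 8 were too dim to test, and 13 of the 24 passed the filter through kidney alone. Pax8 was at 9.90, 10.24, 10.67 and 10.41 in kidney and 1.88, 1.88, 1.87 and 2.04 in liver, and Irx3 (8.13), Pou3f3 (7.97), Emx2 (6.79) and Tfap2b (6.79) came next. Tbx3 was the single factor of that list on the liver side (-3.25).

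Hox genes, which record the position of a tissue along the body axis, were mostly higher in kidney. Of 21 on the array 15 were tested, and 13 of these were at least 2-fold higher in kidney (background 22.7%) and none in liver (median 4.82). The other 6 were too dim to test, and 10 of the 15 passed the filter through kidney alone. Hoxd8 was at 12.27, 12.28, 12.41 and 12.14 in kidney and 2.16, 2.14, 2.14 and 2.15 in liver, the widest gap of the family (10.13). Hoxd10 (7.29), Hoxa10 (7.07), Hoxa9 (7.07) and Hoxb6 (6.59) followed, and all had liver means below the array median. Hoxb3 was the weakest call (1.41) and fell under 2-fold without kidney array 4, at 0.92. The called genes belonged to the A, B and D clusters. From the C cluster Hoxc4 was not called (-0.24), and Hoxc5, Hoxc8 and Hoxc9 were too dim to be tested, with kidney means of 2.23 ± 0.31, 3.05 ± 0.03 and 4.16 ± 0.33. Hoxa11, from the posterior end, stayed under 2-fold (0.54), and Hoxd1, Hoxd3 and Hoxd11 of the D cluster were too dim to be tested.

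Sequences upstream of the transcription start were examined for short motifs known from both organs. Of the genes tested, 8336 had a promoter in the RefSeq-derived table (build GRCr8), and 250 bases before the start were searched on both strands for exact matches. The C/EBP core TTGCNNAA was in 7.69% of all these promoters, in 7.56% of genes at least 2-fold higher in kidney, 10.4% of those higher in liver and 6.92% of the rest. Among the genes that differed by at least 9, a limit chosen after the values were seen, it was in 5 of 45 on the kidney side (11.1%) and 27 of 96 on the liver side (28.1%). The TATA box TATAAA was in 6.57% of all promoters, in 17.8% on the kidney side and in 19.8% on the liver side of that limit. The share with a TATA box was thus above that of all promoters at both extremes. The HNF4 core CAAAGTCCA was in 0.324% of all promoters, and in 1 and 3 at the extremes. These are shares of letters in a window, given without a test. The promoters of 6 genes that differed by at least 9 and hold the C/EBP core are shown, the 3 with the largest difference on each side, because the same letters precede genes of opposite organ. Each is the 250 bases 5′ of the start in gene direction, with each match in capitals, on either strand.
Oxct1: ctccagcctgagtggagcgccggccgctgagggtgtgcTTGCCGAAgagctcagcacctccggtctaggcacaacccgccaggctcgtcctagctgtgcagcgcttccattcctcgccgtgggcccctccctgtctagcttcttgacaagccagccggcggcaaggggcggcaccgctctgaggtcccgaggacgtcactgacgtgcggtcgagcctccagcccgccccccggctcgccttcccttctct
Tinag: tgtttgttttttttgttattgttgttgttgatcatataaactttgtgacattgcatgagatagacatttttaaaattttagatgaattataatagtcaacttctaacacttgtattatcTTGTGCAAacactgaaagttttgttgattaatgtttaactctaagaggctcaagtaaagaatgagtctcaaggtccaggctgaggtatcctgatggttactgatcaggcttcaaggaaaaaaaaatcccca
Acot1: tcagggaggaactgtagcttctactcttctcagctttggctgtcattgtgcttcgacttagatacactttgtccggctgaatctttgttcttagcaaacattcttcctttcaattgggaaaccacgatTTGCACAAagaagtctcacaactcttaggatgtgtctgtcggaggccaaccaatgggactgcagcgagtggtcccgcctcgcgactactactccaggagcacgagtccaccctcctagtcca
Ahsg: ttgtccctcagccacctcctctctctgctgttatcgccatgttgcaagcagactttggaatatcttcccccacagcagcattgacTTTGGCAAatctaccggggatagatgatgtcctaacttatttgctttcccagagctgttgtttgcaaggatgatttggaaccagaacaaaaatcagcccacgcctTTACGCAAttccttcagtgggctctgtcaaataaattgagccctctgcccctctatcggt
Fabp1: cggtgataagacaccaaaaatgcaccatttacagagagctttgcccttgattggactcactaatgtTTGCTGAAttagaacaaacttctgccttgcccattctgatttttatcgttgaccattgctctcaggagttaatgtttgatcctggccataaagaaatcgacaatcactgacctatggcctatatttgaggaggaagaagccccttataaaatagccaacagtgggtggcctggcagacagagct
Itih4: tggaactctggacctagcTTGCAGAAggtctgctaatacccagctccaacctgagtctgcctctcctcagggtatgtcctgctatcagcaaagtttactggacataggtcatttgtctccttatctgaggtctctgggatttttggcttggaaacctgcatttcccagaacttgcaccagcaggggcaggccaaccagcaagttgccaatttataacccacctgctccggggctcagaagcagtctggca
The windows are chr2:54963714-54963963 for Oxct1, chr6:109367024-109367273 for Acot1, chr4:104749090-104749339 for Fabp1 and chr16:6086735-6086984 for Itih4, all on the plus strand, and chr8:86765486-86765735 for Tinag and chr11:91632584-91632833 for Ahsg on the minus strand. Oxct1, Tinag, a protein of tubular basement membranes, and Acot1, an acyl-CoA thioesterase, were higher in kidney (10.58, 10.26 and 10.16), and Ahsg, Fabp1 and Itih4 higher in liver (-13.11, -12.85 and -12.76). Ahsg held 2 matches and the others 1. The first match began between 122 (Acot1) and 232 (Itih4) bases before the start.

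Hormone genes and receptors were called in both directions, 7 of 12 tested in kidney (background 22.7%) and 2 in liver, a share near the background of 18.8%. Another 8 of them on the array were too dim to test. Avpr1a, the vasopressin receptor of vessels and hepatocytes, was higher in liver (-7.42), and Avpr2, that of the collecting duct, higher in kidney (2.44). Agtr1a differed by -1.92 and Agtr1b by 2.97, so the angiotensin receptor forms pointed in opposite directions. Egf (5.73) and Pth1r (3.94) were higher in kidney. In the growth hormone and IGF axis 6 of 16 genes were called in each direction. Igf1 was at 14.47, 14.60, 14.55 and 14.55 in liver and 8.07, 9.19, 9.05 and 9.45 in kidney, and its plasma partner Igfals (-5.49) and the growth hormone receptor Ghr (-3.28) followed it. The IGF receptors Igf1r (5.05) and Igf2r (4.08) and the binding protein Igfbp5 (9.47) were higher in kidney. The hormone and its receptor were higher in different organs.

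Pairs of isozymes and related genes were set side by side. Most are forms of 1 protein, and Gamt with Gatm are successive steps of creatine synthesis. Of 14 pairs with both members tested, 11 had 1 member at least 2-fold higher in liver and the other at least 2-fold higher in kidney. The widest were Fabp1 (-12.85) with Fabp3 (8.32), and the channels Aqp9 (-10.49) with Aqp1 (10.00). Arg1 (-11.87) with Arg2 (6.41), Mat1a (-11.79) with Mat2a (3.44), Hao1 (-9.62) with Hao2 (2.92) and the glycogen synthases Gys2 (-8.11) and Gys1 (4.34) had the same form. So did Ldha (-1.98) with Ldhb (9.09), Agxt with Agxt2, Gamt with Gatm, Pygl (-3.34) with Pygb (3.50), and the glucose carriers Slc2a2 (-1.38) and Slc2a1 (3.13). In the pair of Cpt1a and Cpt1b only the second passed 2-fold (3.61), as in the pair of Hsd11b1 and Hsd11b2. The pair list was chosen for known tissue forms, so its count describes these pairs only.

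**Figure D3:**
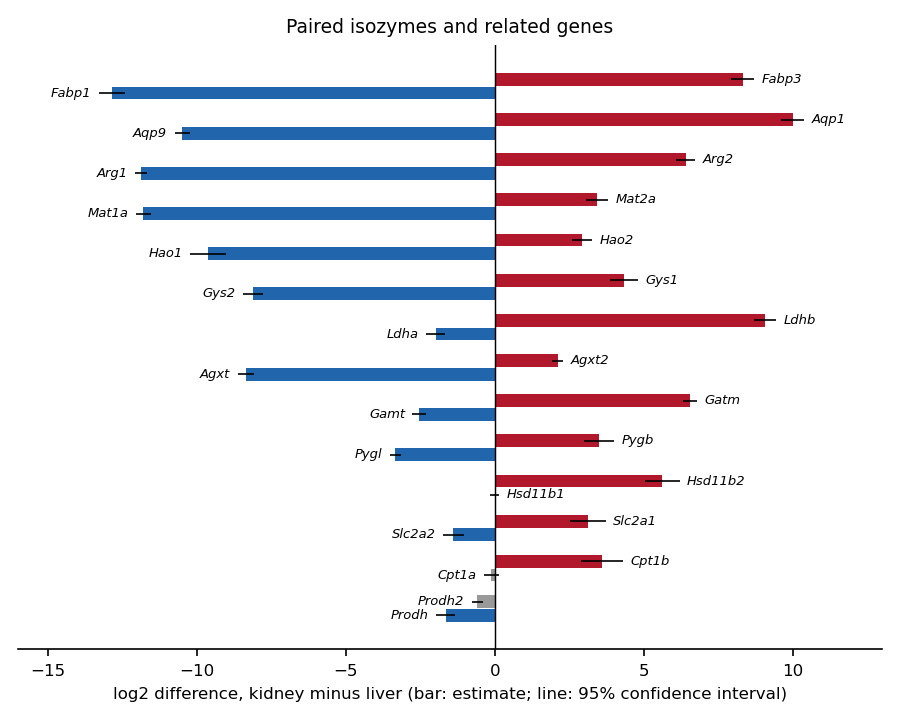
Log2 difference, kidney minus liver, of both members of each pair of isozymes or related genes (bars, with 95% confidence intervals as lines; red, at least 2-fold higher in kidney; blue, in liver; grey, neither). Most pairs point in opposite directions, from Fabp1 and Fabp3 at the top, and Prodh and Prodh2 at the bottom point the same way.

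Epithelial adhesion genes were called in both directions, 12 of 25 in kidney and 8 in liver. Cdh16, the kidney cadherin, differed by 10.52, and Cdh2 (-3.20) and Cdh1 (-1.33) were higher in liver, the latter under 2-fold (-0.74) when its probe sets were averaged. The claudins split by gene: Cldn10 (11.22), Cldn8 (9.20) and Cldn16 (7.80) were renal, Cldn14 (-5.14), Cldn3 (-2.89) and Cldn1 (-2.47) hepatic, and Cldn2 (0.82) and Cldn12 (-0.66) passed 2-fold in neither. Krt7 (9.89) and Krt19 (5.03), keratins of ducts, were higher in kidney, and Krt8 (-0.34) passed 2-fold in neither.

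Most genes of the respiratory chain were higher in kidney by less than 2-fold. Of 65 tested, 61 were higher in kidney at an adjusted p below 0.05 (background 40.5%) and 2 in liver (38.3%), but only 20 passed 2-fold (median 0.85). The size depended on the scaling: the median was 0.73 in the values as deposited and 0.51 with array medians centred, and the number past 2-fold was 12 and 5. Sdhc (1.76), Cox8a (1.59), Ndufs1 (1.46) and Uqcrc2 (1.38) had the largest differences. In the tricarboxylic acid cycle 9 of 19 genes passed 2-fold in kidney (7 under either other scaling) and none in liver, with the subunits of isocitrate dehydrogenase Idh3g (2.98), Idh3a (2.79) and Idh2 (2.67) and citrate synthase Cs (2.52, though -0.12 from another probe set) in front. Cytosolic ribosomal proteins had a median of 0.50 (0.17 to 0.50 over the scalings), and proteasome genes a median of -0.32 (-0.56 to -0.32). In neither list did a gene pass 2-fold, except 2 proteasome genes that passed in liver with array medians centred. The one-sided direction was not particular to the respiratory chain. Of the 39 ribosomal genes tested, 38 were higher in kidney at an adjusted p below 0.05 and 1 in liver, and 34 had intervals within 2-fold. Of the 30 proteasome genes, 4 were higher in kidney and 17 in liver by that measure, and 29 had intervals within 2-fold.

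**Figure D4:**
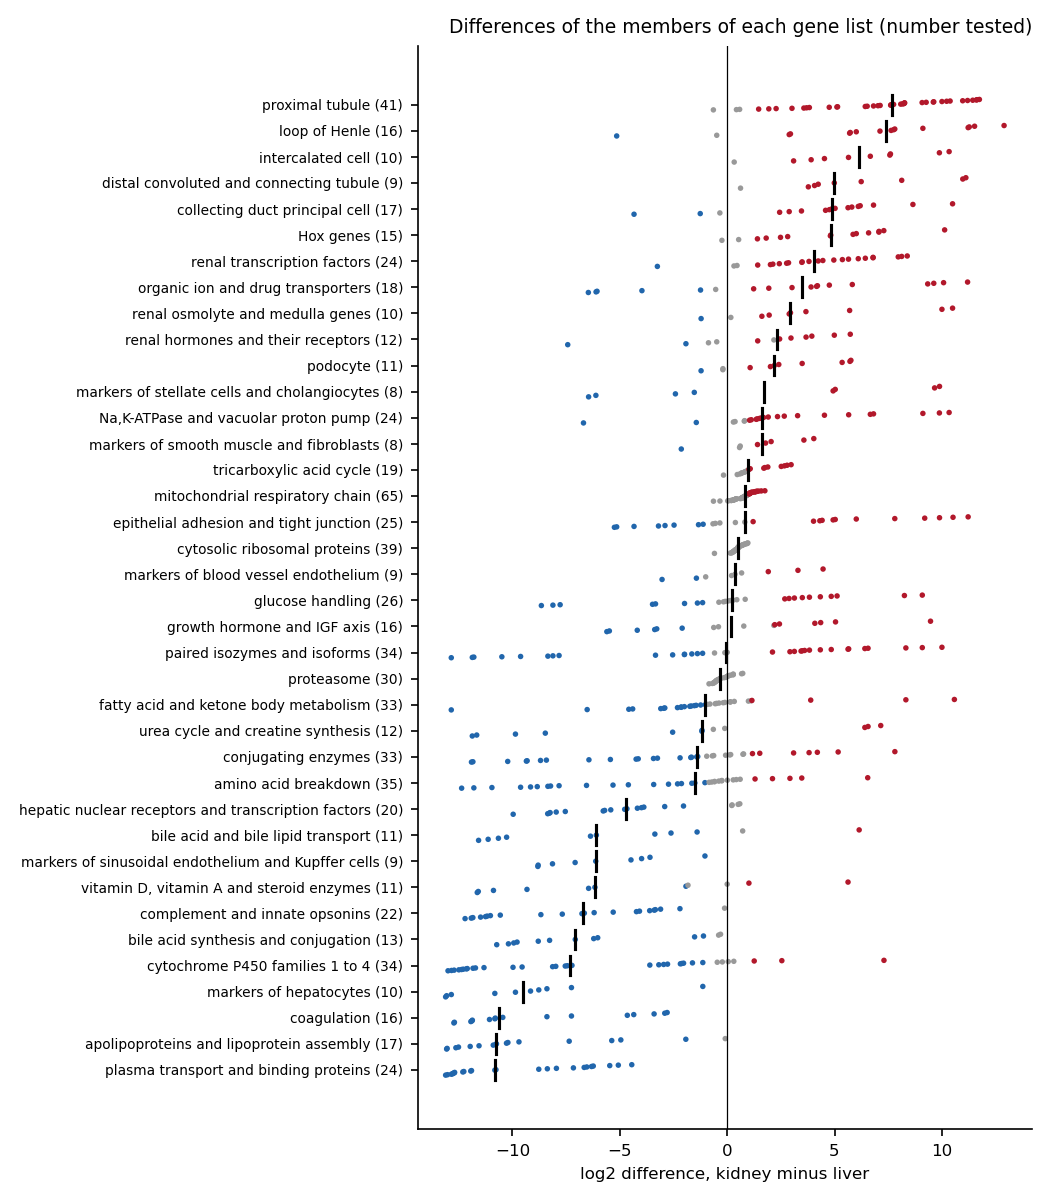
Log2 difference, kidney minus liver, of every tested member of the gene lists with at least 8 tested members (points; red, at least 2-fold higher in kidney; blue, in liver; grey, neither), with the list median as a black bar. The proximal tubule list has the highest median, 7.66, and plasma transport proteins the lowest, -10.79, while ribosomal and proteasome genes cluster near 0.

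Markers of other cells in these organs were examined as well. All 9 tested markers of sinusoidal endothelium and Kupffer cells were higher in liver (median -6.12), among them Clec4f of Kupffer cells (-8.80) and Stab2 of sinusoids (-7.08). Of 9 markers of blood vessels 3 were higher in kidney and 2 in liver, shares near the background of 22.7% and 18.8%. Pecam1 and Tek, found in all vessels, did not pass 2-fold (0.37 and 0.67), whereas Plvap (4.47) and Emcn (3.30) were higher in kidney. Of 8 tested markers of smooth muscle and fibroblasts 5 were higher in kidney, led by Dcn (4.03), and Col3a1 was higher in liver (-2.14). The markers of stellate cells and bile ducts split by cell, since Lrat and Reln of stellate cells were higher in liver (-6.45 and -6.11) and the duct genes Krt7, Krt19, Epcam and Spp1, which renal tubules also make, were higher in kidney, 4 of 8 each way. Of 7 fat cell markers on the array 4 were too dim to test, and of the 3 tested 2 were higher in liver. Of 9 lymphocyte markers 6 were too dim to test, and of the 3 tested 1 was higher in liver, with Cd3e at 3.52 ± 0.08 and 4.69 ± 0.23. With 3 tested members each, these shares cannot be set against the background of 18.8%. Adrenal and pancreas genes, the neighbours most likely to be dissected along, were mostly dim: 9 of 10 adrenal and 10 of 11 pancreas genes on the array were too dim to test. The pancreas gene tested, Cela1, lay above the array median on all 8 arrays and differed by -0.57. The adrenal gene tested lay above the median on all liver arrays and on no kidney array (-5.63). Star and Cyp11b1 of the adrenal were at 2.41 ± 0.01 and 2.22 ± 0.02 in kidney. Red cell genes were in both organs, with 2 of 3 tested higher in liver and another 2 on the array too dim to test. Hbb was at 14.44 ± 0.30 in kidney and 14.71 ± 0.11 in liver, and Alas2 was higher in liver (-2.32).

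The 10 hepatocyte markers had a mean level of 5.24 to 6.13 over the kidney arrays and 14.94 to 15.13 over the liver arrays. Among the kidney arrays, array 3 was the highest for 6 of the 10 markers and for 8 of the 12 leading liver genes named above. All kidney values of those 12 genes lay below the array median, where values are bounds. Ahsg, Apoa2 and Serpina1 belong to both sets, so the counts are not separate. The median deviation of the 10 markers from their kidney means was 0.08, -0.19, 0.21 and -0.26 on arrays 1 to 4. Alb, as given above, and Ttr (5.35, 3.76, 6.22 and 3.92) and Cps1 (4.92, 3.71, 5.98 and 4.34) were highest on array 3, as were Serpina1 (2.28, 1.89, 3.62 and 2.18) and Ahsg (2.98, 2.90, 3.33 and 2.80), whose values all lay below the array median. Apoa2 (2.39, 2.51, 2.48 and 2.38) and Tat (2.32, 2.31, 2.12 and 2.12) were not highest there and also lay below the median. By their median deviation the 10 markers stood highest on kidney array 3, though several of them lay below the array median there. Their part in the organ differences was not tested. Without kidney array 3 the counts past 2-fold were 2231 in kidney and 1887 in liver. On the liver arrays the proximal tubule markers had mean levels of 5.43 to 5.49, and Kap and Cltrn stood out on liver array 1, with Cltrn at 4.96, 3.74, 3.75 and 3.68.

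**Figure D5:**
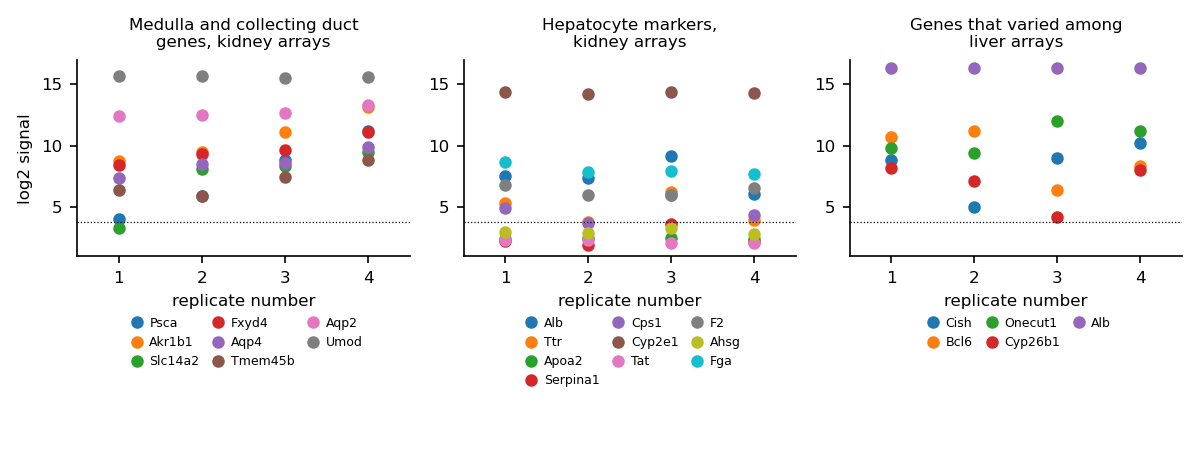
Log2 signal on each array (x axis, replicate number, which carries no order) of medulla and collecting duct genes on the kidney arrays, of the 10 hepatocyte markers on the kidney arrays, and of genes that varied among the liver arrays, with a dotted line at the array median of 3.80. Psca and Akr1b1 spread over several log2 units on the kidney arrays where Umod does not. Of the 10 hepatocyte markers, 6 are highest on kidney array 3, among them Alb, Ttr and Cps1. Cish and Bcl6 spread on the liver arrays, while Alb sits at the top of the scale, where normalisation fixes its value.

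Variation among animals of 1 organ was small for most genes, with a median SD of 0.15 in kidney and 0.17 in liver. The genes named next were chosen after their values were seen, among the 20 with the largest SD of those above the array median on all 4 arrays of the organ, apart from Slc14a2, which is below it on 1 kidney array. In kidney the largest spread of these was that of Psca, at 4.04, 5.95, 8.81 and 11.24 on arrays 1 to 4. Akr1b1, the aldose reductase that makes sorbitol in the medulla, was at 8.76, 9.52, 11.10 and 13.16, and Tmem45b at 6.39, 5.88, 7.44 and 8.88. All 3 were highest on kidney array 4. Slc14a2, the urea carrier of the inner medulla, was at 3.31, 8.10, 8.33 and 9.49, lowest on array 1. Its difference from liver had an SE of 1.09, and its call was lost when any array other than kidney array 1 was left out (differences of 2.19 to 2.98). The call of Psca (3.09) was lost without kidney array 3 or 4 (2.67 and 1.86) or without any 1 liver array (2.99 to 3.17). Over the 17 principal cell markers the median deviation from the kidney mean was -0.22, -0.30, 0.21 and 0.61 on arrays 1 to 4, against 0.02, 0.02, -0.03 and -0.03 over the 41 proximal tubule markers. The part of the sampled region of the kidney in this was not tested. In liver the largest spread was in Cish, an inhibitor of cytokine signalling, at 8.82, 5.03, 9.03 and 10.22, and Bcl6, a transcriptional repressor, at 10.68, 11.23, 6.45 and 8.38. Cish was lowest on liver array 2, where Bcl6 was highest, and Bcl6 was lowest on liver array 3. The kidney arrays of the same numbers had the same lowest arrays. There Cish was at 7.99, 6.09, 8.45 and 8.96 and Bcl6 at 10.11, 10.76, 8.20 and 10.34, so this variation was not particular to liver. For Cish and Bcl6 no organ difference was called at 2-fold (-0.40 and 0.67).

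The organ contrast was then read in the rats given monuron, whose arrays did not enter the tests above. The authors had normalised the control and treated arrays of 1 organ together, so the values are not wholly independent. There 9821 genes were tested, of which 2160 were at least 2-fold higher in kidney (22.0%) and 1844 in liver (18.8%). Of the 2246 genes called for control kidney, 2176 were tested in the treated rats and 1965 (90.3%) were called again in the same direction. Of the 1861 called for control liver, 1838 were tested and 1630 (88.7%) were called again. The control values of Umod, Slc34a1, Alb and Cyp7a1 (12.89, 11.60, -8.77 and -10.18) stood beside treated values of 12.91, 11.48, -6.23 and -9.96. Only 10 kidney genes and 5 liver genes had the opposite sign in treated rats. The 10, singled out after their values were seen, were Aspm, Aurka, Aurkb, Ccnb1, Cenpf, Cenpw, Nav2, Nusap1, Ppp2r2b and Uhrf1. Their control differences were between 1.07 (Nav2) and 2.48 (Nusap1), with treated values between -0.59 and -0.06. In the liver group 2 genes were called at 2-fold the other way: Cyp1a1, an enzyme regulated through the dioxin receptor, went from -2.03 to 2.44, and Aig1 from -1.05 to 1.38. On the liver arrays Cyp1a1 was at 9.39, 8.82, 8.37 and 9.52 in controls and 4.61, 3.96, 2.35 and 6.58 in treated rats. The kidney values were 6.63, 8.19, 8.11 and 5.05 in controls and 6.15, 6.90, 5.48 and 8.74 in treated rats. The treated organs overlapped for this gene, and the quantile normalisation used here was run apart for control and treated arrays. The control calls of Uhrf1, Ppp2r2b and Aig1 were fragile. That of Ppp2r2b was lost without kidney array 1 or 3 or liver array 1 or 2 (1.09 to 1.45). That of Uhrf1 was lost without kidney array 1, 3 or 4 or any 1 liver array (0.70 to 1.15), and that of Aig1 fell under 2-fold without kidney array 1 (-0.73) or liver array 3 (-0.82). The change between control and treated rats was not tested for these genes.

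Genes called for 1 organ often lay side by side. Placed in order along the RefSeq chromosomes (9902 of the tested genes), 1083 of 2244 kidney genes (48.3%) had a directly adjacent tested gene that was also higher in kidney, while 39.6% of all genes had such a neighbour. For liver the figures were 855 of 1859 (46.0%) and 33.0%. The longest unbroken liver run held 13 tested genes on chromosome 6, with 10 serpins of the Serpina cluster from Serpina10 to Serpina3n. Another of 10 genes on chromosome 1 held Cyp2c11, Cyp2c6v1, Cyp2c7, Cyp2c12, Cyp2c13 and Cyp2c22, and one of 6 on chromosome 14 held Albfm1, Afm, Afp and Alb. On the kidney side were the Hoxa genes Hoxa5, Hoxa7, Hoxa9 and Hoxa10 in a run of 7 on chromosome 4, the Hoxb genes Hoxb2, Hoxb3, Hoxb4, Hoxb6 and Hoxb7 in a run of 5 on chromosome 10, and the Nat8 acetyltransferases in a run of 6 on chromosome 4. Near-identical neighbours such as the Cyp2c and Serpina3 genes can share signal.

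Probe sets of 1 gene did not always give the same call. Of 2306 genes with 2 or more tested probe sets, 617 had every probe set called at 2-fold in the same direction, 1084 had none called, 598 had some called and others not, and 7 had calls in both directions (Cnst, Mapre3, Pheta1, Ppfia1, Sf3b1, Spink1 and Uba6). Spink1, a trypsin inhibitor, was the widest of these, with 1.55 from its brightest probe set and -6.11 and -6.31 from the others. Among 55 genes named here with 2 or more tested probe sets, 36 had probe sets whose differences lay more than 1 log2 unit apart. Igfbp5, given above at 9.47, had 1.64 from its least different probe set, Irx3 had 3.82 and Slc34a1 6.75. A dim probe set did not mean a silent gene, because the ribosomal proteins Rpl28, Rpl30 and Rps13, which every cell needs, had kidney means of 3.05 ± 0.13, 2.49 ± 0.03 and 2.46 ± 0.02 and liver means of 2.93 ± 0.01, 2.47 ± 0.02 and 2.46 ± 0.02. The angiotensin-converting enzyme Ace, a brush border protein, was likewise dim in both organs (3.34 ± 0.27 and 3.33 ± 0.01).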

How the data were processed

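RNA of control rat kidney and liver was measured on Affymetrix rat arrays, 1 array per sample, with 4 arrays per organ. The submitters' processing notes name GCRMA as the authors' tool for the deposited log2 signals; its version is not given in the sources used here. The deposited distributions were alike within an organ and differed between organs, so the 8 arrays were quantile-normalised together. Of 31099 probe sets, 57 controls were left out, and 20826 carried 1 gene symbol in the platform annotation, 436 several and 9780 none. Each of 14217 named genes was represented by its probe set with the highest mean, and 9909 genes above the array median on at least 4 of the 8 arrays were tested. The test was limma 3.58.1 in R 4.3.3 (lmFit and eBayes with a mean-variance trend, two-sided, Benjamini-Hochberg over all genes tested, threshold 0.05). On simulated data over 9909 genes, with only a small part of them changed, 75% of 2-fold and 98% of 4-fold changes were recovered, with 12 false calls. Because 78.8% of genes were called between the organs, these rates do not carry over to that comparison.

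Organs were grouped by the labels. The 43 gene lists, with 900 of 1080 entries on the array, the panel and the comparisons were chosen with earlier results of these data known. Named genes were the 12 largest differences in each direction, the panel, the leading and the exceptional members of each list, and both members of each isozyme pair; others are marked as chosen after their values were seen. Precision is limited by the number of arrays. The labels do not say whether same-numbered kidney and liver arrays came from the same rat, so they were treated as unpaired. A fit with the replicate number as a block is given in the last section.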

Additional observations from a re-analysis of the deposited data

Results flagged for a closer look

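In groups of 4 arrays an extreme array was marked when its gap to the nearest other array, divided by the range of the group, passed Dixon's 95% critical value. This held for 65 of 580 organ groups of the genes named above, where chance marks about 5% of groups. In 57 of them the whole range was under 1 on the log2 scale. All values are log2 signals.

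Among the groups with a wider range, Aurkb stood below the other kidney arrays on kidney array 2 (4.78), Cltrn stood above the other liver arrays on liver array 1 (4.96), Hoxb3 stood above the other kidney arrays on kidney array 4 (6.78), Hsd11b2 stood below the other liver arrays on liver array 3 (5.87), Kap stood above the other liver arrays on liver array 1 (5.02), Lrat stood above the other kidney arrays on kidney array 4 (4.27), Scd stood below the other liver arrays on liver array 3 (7.24) and Slc34a3 stood below the other liver arrays on liver array 1 (2.09).

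Kidney array 1 was highest for Cyp2c22 (2.4). Kidney array 2 was highest for Aqp9 (2.47), Oxct1 (13.84), Plg (2.5), Serpinf2 (10.78) and St6gal1 (11.86), and lowest for C1qc (6.33) and Klk1 (12.88). Kidney array 3 was highest for Crp (2.39), Cyp1a2 (2.34), Cyp2c6v1 (2.64), Cyp2c7 (2.57), Cyp3a2 (3.74) and Ugt2b (3.22), and lowest for Acot1 (12.63), Afp (2.31) and Kap (16.09). Kidney array 4 was highest for Clec4f (2.77) and Nags (2.94), and lowest for Cldn14 (2.45), Cyp4a3 (12.55) and Tdo2 (2.16). Liver array 1 was highest for Kcnj16 (2.46) and Slc12a3 (3.31), and lowest for Aqp3 (2.29), Atp6v1b1 (2.12), Casr (1.94), Cdh16 (2.34), Cyp2c7 (14.94), Fga (15.23) and Pc (10.37). Liver array 2 was highest for Aqp2 (2.34) and Slc22a6 (2.36), and lowest for Glul (12.32), Kl (2.22), Nr1i3 (9.39) and Tinag (2.69). Liver array 3 was highest for Atp6v0a4 (2.45), C1qb (9.37), Kcnj1 (2.63) and Serpina1 (15.41), and lowest for Agxt2 (11.72), Avpr2 (3.23), Defb1 (1.78), Slc22a2 (2.48), Slc2a2 (13.23) and Slc37a4 (11.75). Liver array 4 was highest for Ahsg (16.17), Cenpf (6.31), Krt7 (2.49), Nav2 (6.36), Pax8 (2.04) and Scnn1a (2.89), and lowest for Acot1 (2.49), Emx2 (2.5), Rhcg (2.2) and Slc5a2 (2.69).

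For Aurka all control kidney arrays lay above all control liver arrays (1.57), and all monuron kidney arrays lay below all monuron liver arrays (-0.59). Aig1 went the other way, from -1.05 in control rats to 1.38 in monuron rats. These differences between control and monuron rats were not tested.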

How the results depend on the processing

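The 6 main counts were recomputed without 1 array at a time and with other normalisations, filters, probe set rules, floors and tests. Of 110 such values 109 stayed within 1.5 times the main count. The exception was the number of genes on in liver and off in kidney, which was 569 in place of 376 with the line at the 60th percentile of the array. Leaving out 1 array gave 7560 to 7855 genes called, 2231 to 2297 at least 2-fold higher in kidney, 1839 to 1912 in liver, 547 to 574 on in kidney only, 385 to 403 on in liver only and 3554 to 3603 calls found again in monuron rats. The fit settings cannot move the counts of genes on in 1 organ and off in the other, and testing every probe set was not run for single genes. Values as deposited shifted the share of 2-fold calls that favoured kidney from 54.7% to 60.9%. Of 1672 list counts 39 moved by more than 1.5 times, most of them counts of 1 or 2. Of 5216 values for named genes, 72 lost the 2-fold call, 7 gained it and 2 reversed: with probe sets averaged, Cnst was at -0.285 and Spink1 at -3.62, and the other probe sets of these genes point to liver.

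Same-numbered kidney and liver arrays had deviations correlated at 0.015, 0.13, 0.09 and 0.15, and unlike numbers at -0.13 to 0.03. For 7 of 8 arrays the best match was the array of their own number, a hint from the data and not from the design. With the replicate number as a block, 7780 genes were called, 2251 at least 2-fold higher in kidney and 1863 in liver, and 3598 calls were found again in monuron rats. The number of arrays and the dim end of the scale, where values are bounds, limit what these data can show.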
